A study of Mus musculus with 20 samples.

Results

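Multipotent progenitors (MPP) were compared with the hematopoietic stem cells (HSC) they arise from, gene by gene, with the question of which stem cell genes are given up and which cell cycle genes appear on leaving the quiescent state. The comparison takes 4 of the 20 arrays of the series, 2 titled for MPP and 2 titled for HSC, all hybridised with RNA of cells sorted from bone marrow of wild-type C57bl/6 mice aged 8 to 14 weeks. RNA went through 2 rounds of amplification before labelling. The sort gates are not given in the sources used here, and the labels do not say whether the arrays of a group came from separate animals. The p-values therefore rest on a spread between arrays that may be technical, pooled within the groups of all 20 arrays. The root mean square standard deviation within a group was 0.46 in HSC and 0.35 in MPP, and ran from 0.17 in GMP to 0.56 in CLP. The other 16 arrays, from lymphoid-primed multipotent progenitors (LMPP), common lymphoid (CLP) and granulocyte-monocyte progenitors (GMP), pro-B cells, CD4 T cells and Rag2-deficient NK cells with and without Ets1, entered the same fit to estimate the error of each gene.

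HSC maintain blood formation for life and divide rarely. Most of them rest outside the cell cycle, held there by inhibitors of cyclin-dependent kinases, and they express a small set of adhesion receptors and transcription factors that their progeny lose. MPP still give rise to all blood lineages but have lost lasting self-renewal, and they cycle much more often. Cells that cycle make the enzymes of DNA replication before S phase and a large group of mitotic genes in G2, and many promoters of the mitotic group carry a CCAAT box and the element TTTGAA, known as the cell cycle genes homology region.

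Levels are log2 of the deposited intensities, and a difference is the mean of the MPP arrays minus the mean of the HSC arrays on that scale, with its standard error (SE) from limma. A gene passed the test at an adjusted p below 0.05 over 13479 genes. Of these, 261 genes were higher in MPP (1.94%) and 538 were lower (3.99%), and the median difference of all genes was -0.14. Another normalization between arrays gave 369 higher and 425 lower. With the 4 arrays fitted alone, on 2 residual degrees of freedom, 40 genes were higher and 61 lower, and 62 of the 89 genes named below that passed in the full fit did not pass there. The pooled SE can be below or above that of the 4 arrays. It was 0.69 against 0.93 for the mitotic gene Ccna2, and 0.47 against 0.37 for Pbx3. With 1 array left out the SE of a gene can also be larger, so a call can be lost while the difference stays alike.

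The arrays of a group were not alike, and the difference runs through the gene groups at issue. Among 50 mitotic genes, HSC array 1 lay below HSC array 2 in 48, with a median gap of -1.82, whereas MPP array 1 lay below MPP array 2 in 17. Over all genes tested, array 1 was the lower in 55.4% within HSC and in 62.0% within MPP. Among 36 stem cell genes, MPP array 1 lay below MPP array 2 in 33, with a median gap of -0.79, against a median gap of -0.13 over all genes. Thus HSC array 2 had more mitotic RNA than HSC array 1, and MPP array 2 had more stem cell RNA than MPP array 1. A higher share of cycling or stem cells and more such RNA per cell cannot be told apart in bulk RNA.

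The labels were first set against surface genes in common use for sorting such cells. Whether the gates here used them is not known. A gene of the gate would differ by selection, so these values are no independent check of the labels. Procr, the gene of the endothelial protein C receptor that marks HSC, had levels of 7.75 and 8.23 on the MPP arrays, against 10.19 and 10.50 on the HSC arrays. Slamf1, which encodes the HSC antigen CD150, had levels of 3.85 and 4.75 in MPP, against 6.61 and 6.55 in HSC. Cd48, carried by progenitors but not by most HSC, had levels of 9.30 and 8.94 in MPP, against 6.59 and 6.35 in HSC. The MPP and HSC arrays did not overlap for any of these genes, and each moved in the direction its use in sorting implies. Such lack of overlap is common, with MPP higher in 16.2% of all genes and lower in 30.7%. The difference was -2.36 ± 0.27 for Procr (adjusted p = 5.2e-05), -2.28 ± 0.26 for Slamf1 (adjusted p = 5.12e-05) and 2.65 ± 0.54 for Cd48 (adjusted p = 0.00531). For Slamf1 the mean over all its probe sets gave -1.20, still past the threshold.

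Of 16 surface markers tested, 2 were higher in MPP (12.5%) and 3 were lower (18.8%), against 1.94% and 3.99% of all genes. The others that passed were Cd244a, a SLAM family receptor of progenitors, at 1.86 ± 0.43, and Esam, an endothelial adhesion molecule shared by HSC, at -1.64 ± 0.28. Cd48, Cd244a and Esam lost the call without MPP array 1, with differences of 2.47, 1.46 and -1.28, and Cd244a also without HSC array 2, at 1.75, while its probe sets averaged 1.04, still called. The list had 0 higher members without MPP array 1, 1 without HSC array 2 and 4 without HSC array 1, and 2 lower ones without MPP array 1. Cd34, which appears as long-term HSC become short-term cells, had 10.88 and 10.62 in MPP, against 9.65 and 8.83 in HSC. Flt3, the cytokine receptor that marks the lymphoid-primed branch, had 9.72 and 8.34 in MPP, against 8.60 and 7.07 in HSC. Neither passed the test, with a difference of 1.51 ± 0.45 for Cd34 (adjusted p = 0.0547) and 1.20 ± 0.43 for Flt3 (adjusted p = 0.113), and the Flt3 arrays overlapped. The stem cell factor receptor Kit, at -0.64 ± 0.49, Cd27, at 0.94 ± 0.32, Il7r, at -1.34 ± 0.43, and Ptprc, at -0.60 ± 0.31, did not pass either. Differences for Thy1, Itga2, Itga2b, Fcgr2b and Fcgr3 lay between -0.14 and 0.47 without passing. Another Fcgr2b probe set was at 1.97 (adjusted p = 0.0167 over all probe sets), at odds with the one used.

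Most genes of the stem cell programme fell in MPP. Of 40 genes in a list of known HSC genes, 36 were tested and 4 were not analysed here. Like the other lists, it was chosen with earlier results of these data known, so its counts are descriptive. All 36 had a negative difference, 27 passed as lower (75.0%, against 3.99% of all genes) and 0 as higher, and the median was -1.86. Both MPP arrays lay below both HSC arrays in 33 of the 36, against 30.7% of all genes. The count that passed was 15 without MPP array 1 and 18 without HSC array 2, with medians of -1.38 and -1.47.

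Among the surface and secreted products, Vwf, the clotting factor that also marks platelet-biased HSC, had 4.40 and 7.11 in MPP, against 9.67 and 10.22 in HSC. Its difference was -4.19 ± 0.49 (adjusted p = 5.37e-05), with -2.84 without MPP array 1 and -5.54 without MPP array 2, called in both. Sult1a1, a sulfotransferase, had 3.54 and 4.71 in MPP, against 7.70 and 8.46 in HSC, a difference of -3.96 ± 0.31 (adjusted p = 6.21e-07). For both genes the higher MPP array stayed more than 2 log2 units below the lower HSC array. Mmrn1, a platelet and endothelial multimer protein, had 5.08 and 7.60 in MPP, against 8.25 and 9.28 in HSC, and it fell by 2.42 ± 0.52. Its value depended on MPP array 1, with a difference of -1.17 and no call without that array, and the call was also lost without HSC array 2, at -1.91. Without MPP array 2 Mmrn1 was at -3.68, and its probe sets averaged -1.34, both called. Tek, the receptor of angiopoietin, overlapped between the groups, at 4.0 and 6.81 in MPP, against 6.75 and 7.95 in HSC. It passed at -1.95 ± 0.54 (adjusted p = 0.0379), with -0.54 without MPP array 1 and -1.34 without HSC array 2, neither called, and with -3.35 without MPP array 2, called.

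Among the regulators, Hoxb5, a homeobox gene found in long-term HSC, had 3.23 and 4.29 in MPP, against 6.66 and 6.77 in HSC. The difference was -2.95 ± 0.32 (adjusted p = 3.82e-05), and the MPP arrays lay near the array median, where RMA intensities carry little signal. Mllt3, a chromatin reader that sustains human HSC in culture, had 5.34 and 7.22 in MPP, against 8.91 and 9.73 in HSC, a difference of -3.04 ± 0.50 (adjusted p = 0.000899). Mecom, the transcription factor Evi1, had 6.64 and 7.65 in MPP, against 8.94 and 10.21 in HSC, a difference of -2.42 ± 0.47 (adjusted p = 0.00343). These regulators fell to levels that no HSC array reached. Mecom lost the call without HSC array 2 (-1.79) or MPP array 1 (-1.92), and the mean of its probe sets gave -1.08, still called. The 9 list members that did not pass had differences of -1.23 to -0.28 and included Meis1 (-0.73), Gata2 (-0.28), Egr1 (-0.90) and Angpt1 (-0.59), whose HSC levels were 9.97 or more on every array.

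**Figure D1:**
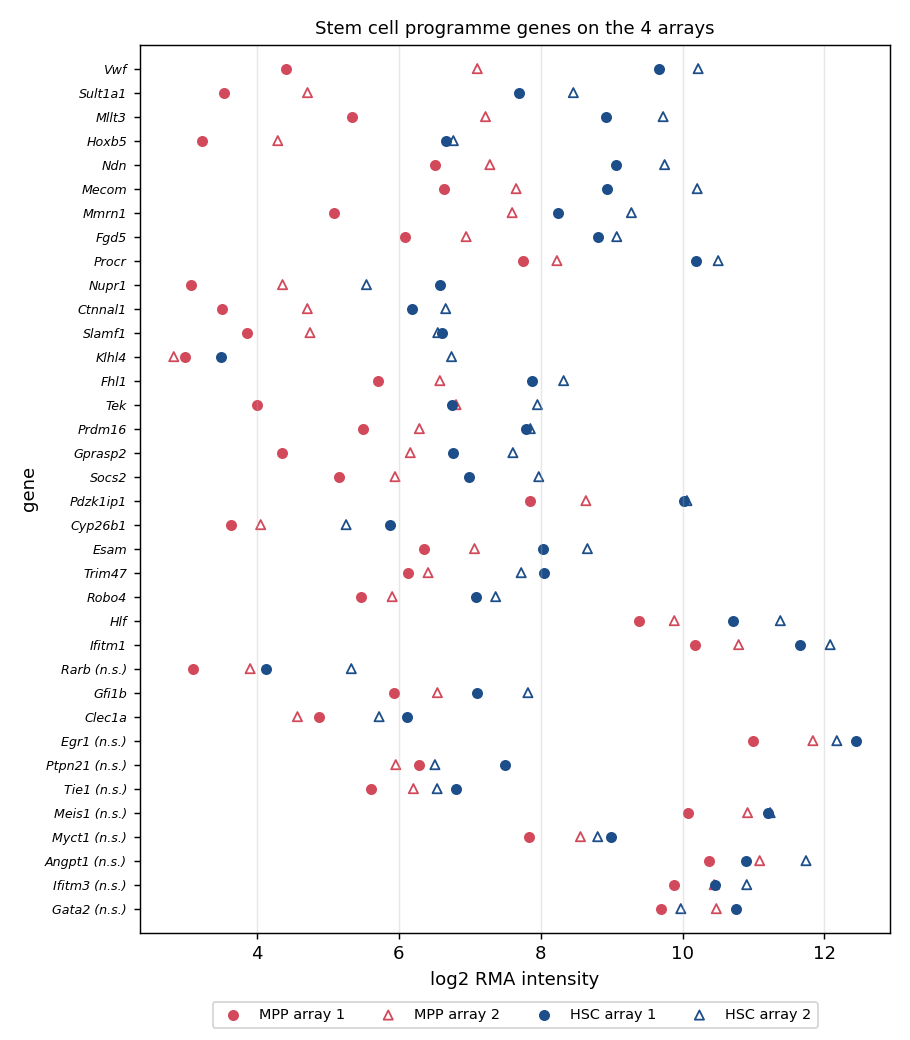
Log2 RMA intensity (horizontal axis) of the 36 stem cell genes tested, 1 gene a line ordered by difference, with MPP arrays in red and HSC arrays in blue, array 1 as filled circles and array 2 as open triangles. Genes marked n.s. did not pass the test. Both MPP points lie left of both HSC points in 33 genes, and MPP array 1 lies left of MPP array 2 in 33.

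Among the CDK inhibitors, which hold cells out of the cycle, 1 fell in MPP, 1 rose and the other 3 did not pass. Cdkn1c, which encodes p57 and keeps HSC out of the cell cycle, had 4.56 and 4.68 in MPP, against 7.79 and 7.82 in HSC. Cdkn2c, which encodes the CDK4 and CDK6 inhibitor p18, had 8.55 and 8.47 in MPP, against 5.54 and 6.48 in HSC. The arrays of each group agreed closely for Cdkn1c, and neither gene overlapped between the groups. Cdkn1c fell by 3.19 ± 0.25 (adjusted p = 6.21e-07), 9.10-fold lower, and Cdkn2c rose by 2.50 ± 0.33 (adjusted p = 0.000125), 5.66-fold higher. Cdkn1a, which encodes p21, had 7.58 and 6.39 in MPP, against 9.11 and 6.14 in HSC, so that the HSC arrays lay on either side of the MPP arrays. Cdkn1a (-0.64), Cdkn1b (-0.26) and Cdkn2d (-0.42) did not pass. The D-type cyclins, which start the cell cycle by binding CDK4 and CDK6, did not pass either, with -0.31 ± 0.34 for Ccnd1, -0.81 ± 0.28 for Ccnd2 and -0.48 ± 0.27 for Ccnd3. Unused probe sets of Ccnd2 ran from -1.01 to 0.05, and the one at -0.92 passed (adjusted p = 0.048 over all probe sets). Those of Ccnd1 were at -1.14 and -1.23, and those of Ccnd3 at -0.51 and 0.49, none passing.

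**Figure D2:**
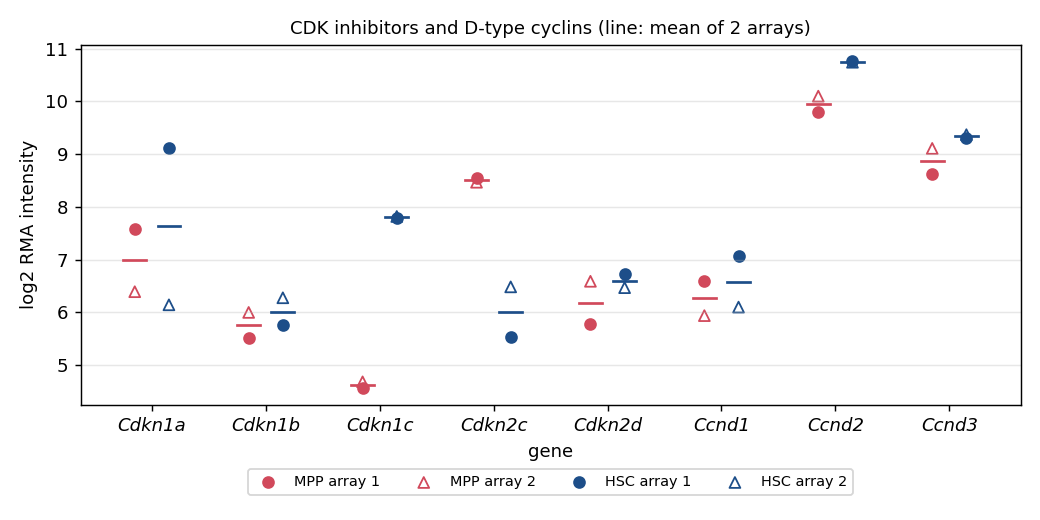
Log2 RMA intensity (vertical axis) of 5 CDK inhibitors and 3 D-type cyclins, with MPP arrays in red left of HSC arrays in blue, array 1 as filled circles, array 2 as open triangles and the mean as a line. The MPP and HSC points are apart for Cdkn1c, lower in MPP, and Cdkn2c, higher in MPP. Heights compare within a gene, not between genes.

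The wider list of quiescence and growth restraint held 35 genes, of which 32 were tested, 1 was too dim and 2 were not analysed here. In it 1 gene was higher in MPP (3.12%) and 4 were lower (12.5%), against 1.94% and 3.99% of all genes. The median was -0.59. The 4 lower genes were Cdkn1c, Ndn, Txnip and Foxo1. Ndn, necdin, a growth suppressor, had 6.50 and 7.28 in MPP, against 9.06 and 9.75 in HSC, a difference of -2.51 ± 0.34 (adjusted p = 0.000163). Txnip, the thioredoxin-interacting protein that restrains glucose uptake, had 8.89 and 9.20 in MPP, against 11.22 and 11.21 in HSC, a difference of -2.17 ± 0.30 (adjusted p = 0.000191). The arrays of each group lay close together for Txnip and apart from the other group for both genes. Foxo1, a transcription factor active when growth signals are low, passed at -1.27 ± 0.32 (adjusted p = 0.0226) and lost the call without HSC array 2 (-1.04), without MPP array 1 (-0.96) and for its probe set mean (-0.55). Hes1, a Notch target gene, had 5.43 and 3.89 in MPP, against 9.56 and 5.41 in HSC. Its difference of -2.82 ± 0.87 was large but the arrays overlapped, and it did not pass (adjusted p = 0.0629). Without HSC array 1 the list had 2 genes higher in MPP.

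Mitotic genes rose together in MPP. Of 51 genes of mitosis and G2-M, 50 were tested and 1 was not analysed here. In all, 45 were higher (90.0%, against 1.94% of all genes) and 0 lower, with a median difference of 2.33. Both MPP arrays lay above both HSC arrays in 49 of the 50, against 16.2% of all genes. The called members ranged from 1.21 to 4.23. The 5 that did not pass were Bub1 (1.63), Mad2l1 (1.78), Smc4 (0.78), Foxm1 (0.86) and Pttg1 (-0.35). HSC array 1 set part of the size, since without it 24 members passed with a median of 1.45, while without HSC array 2 46 passed with a median of 3.10. Without MPP array 1, 25 passed.

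The mitotic cyclin Ccna2 had 9.49 and 9.12 in MPP, against 3.74 and 7.38 in HSC. Cep55, which acts at abscission when daughter cells part, had 8.92 and 8.38 in MPP, against 4.03 and 4.81 in HSC. Birc5, survivin, of the chromosomal passenger complex, had 8.38 and 7.83 in MPP, against 3.27 and 5.91 in HSC. In each case the MPP arrays agreed within 1 log2 unit and the lowest value was that of HSC array 1. The difference was 3.74 ± 0.69 for Ccna2 (adjusted p = 0.00249), 4.23 ± 0.58 for Cep55 (adjusted p = 0.000191) and 3.51 ± 0.57 for Birc5 (adjusted p = 0.000855). Other large ones were Nusap1, a spindle protein, at 3.65 ± 0.57, Nuf2, a kinetochore protein, at 3.35 ± 0.57, Prc1, which bundles midzone microtubules, at 3.35 ± 0.58, and Ube2c, the ubiquitin-conjugating enzyme of the anaphase-promoting complex, at 3.26 ± 0.60. Without HSC array 1 the differences were 1.92 for Ccna2, 2.20 for Birc5, 2.29 for Nusap1, 1.99 for Nuf2, 1.80 for Prc1 and 1.76 for Ube2c, all still called. The mean over probe sets gave 2.22 for Cep55, whose only other probe set was at 0.21 and did not pass, and 2.05 for Nusap1, both still called.

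**Figure D3:**
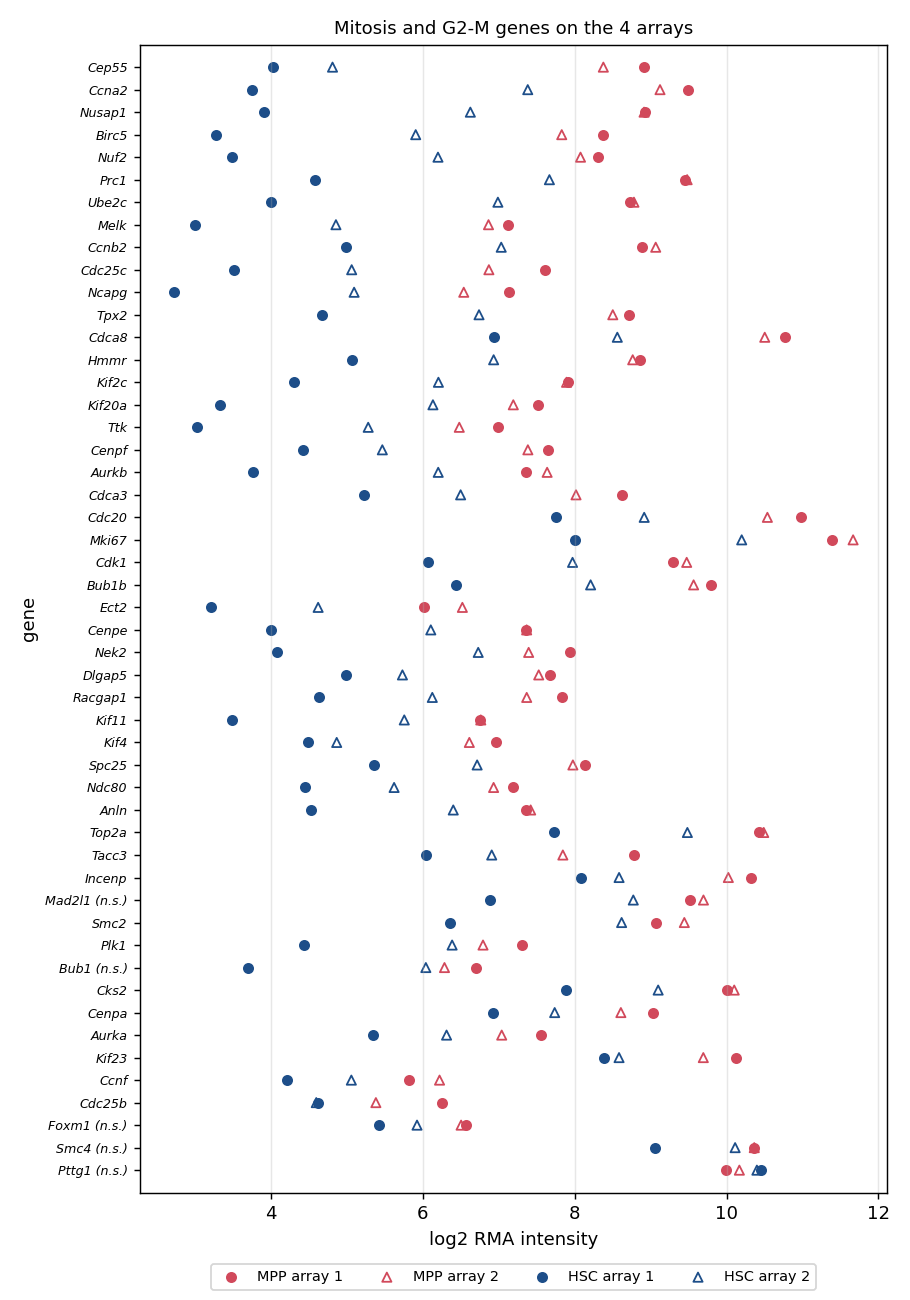
Log2 RMA intensity (horizontal axis) of the 50 genes of mitosis and G2-M tested, 1 gene a line ordered by difference, with MPP arrays in red and HSC arrays in blue, array 1 as filled circles and array 2 as open triangles. Genes marked n.s. did not pass the test. Both MPP points lie right of both HSC points in 49 genes, and HSC array 1 lies left of HSC array 2 in 48.

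The promoters of 4 called mitotic genes are shown to let the searched motifs be seen in place. They belong to the members with the largest differences among those whose window in the table holds either motif. Each runs 250 bases before to 50 after the RefSeq gene start in build GRCm38.p6, 5′ to 3′ on the gene's strand, with CCAAT and TTTGAA on either strand (ATTGG and TTCAAA on the other) in capitals. The regions are chr19:38054734-38055033 (+) for Cep55, chr7:80294201-80294500 (+) for Prc1, chr2:164769679-164769978 (+) for Ube2c and chr9:70421505-70421804 (-) for Ccnb2, a mitotic cyclin whose difference was 2.97 ± 0.50.
Cep55: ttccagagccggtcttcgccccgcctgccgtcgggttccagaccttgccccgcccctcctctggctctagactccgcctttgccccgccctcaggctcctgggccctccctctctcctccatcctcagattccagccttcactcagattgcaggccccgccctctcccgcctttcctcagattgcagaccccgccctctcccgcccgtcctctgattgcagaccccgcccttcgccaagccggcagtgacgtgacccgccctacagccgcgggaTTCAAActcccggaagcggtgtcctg
Prc1: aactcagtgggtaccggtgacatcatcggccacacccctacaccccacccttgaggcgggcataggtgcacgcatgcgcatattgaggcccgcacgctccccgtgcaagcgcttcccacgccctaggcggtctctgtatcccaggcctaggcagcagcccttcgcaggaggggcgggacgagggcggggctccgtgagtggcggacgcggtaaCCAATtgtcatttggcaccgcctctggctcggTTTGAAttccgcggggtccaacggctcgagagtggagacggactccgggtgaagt
Ube2c: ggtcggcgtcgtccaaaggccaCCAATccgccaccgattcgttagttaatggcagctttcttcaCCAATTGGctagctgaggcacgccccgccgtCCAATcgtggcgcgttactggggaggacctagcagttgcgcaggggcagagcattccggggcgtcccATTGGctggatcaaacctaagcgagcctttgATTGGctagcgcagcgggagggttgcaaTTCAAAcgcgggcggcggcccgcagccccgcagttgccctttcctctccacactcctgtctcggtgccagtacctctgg
Ccnb2: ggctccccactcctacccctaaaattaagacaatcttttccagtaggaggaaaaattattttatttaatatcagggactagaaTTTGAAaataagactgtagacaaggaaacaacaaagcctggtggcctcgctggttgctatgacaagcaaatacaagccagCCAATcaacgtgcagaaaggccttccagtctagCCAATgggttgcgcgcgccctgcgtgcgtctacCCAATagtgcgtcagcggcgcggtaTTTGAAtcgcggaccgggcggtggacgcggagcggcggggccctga
The Cep55 window held 0 matches to CCAAT and 1 to TTTGAA. Prc1 held 1 of each, Ube2c 6 and 1, and Ccnb2 3 and 2, and no base belonged to both motifs. Among the 41 mitotic genes with a window in the table, 30 held CCAAT (73.2%), 29 held TTTGAA (70.7%) and 25 held both (61.0%). Among the windows of 10845 genes tested, 38.3% held CCAAT, 12.1% held TTTGAA and 4.92% held both. For 29 stem cell genes the shares were 27.6%, 10.3% and 3.45%, and for 41 genes of DNA replication they were 58.5%, 14.6% and 9.76%. A match describes the letters of a window and does not show a bound factor.

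Of 50 genes of DNA replication and G1-S, 48 were tested and 2 were not analysed here. In this list 12 were higher (25.0%, against 1.94% of all genes) and 0 lower, with a median difference of 0.71 and 40 positive. Tk1, thymidine kinase, had 9.08 and 9.10 in MPP, against 6.46 and 7.42 in HSC, and Uhrf1, which guides maintenance methylation to new DNA, had 9.43 and 9.15 in MPP, against 7.39 and 7.51 in HSC. The groups did not overlap for either gene. The difference was 2.15 ± 0.34 for Tk1 (adjusted p = 0.000694) and 1.84 ± 0.28 for Uhrf1 (adjusted p = 0.000497). Rrm2, a subunit of ribonucleotide reductase, rose by 2.49 ± 0.47, Pola1, the catalytic subunit of DNA polymerase alpha, by 2.33 ± 0.43, and E2f8, a repressor of the E2F family, by 2.11 ± 0.38. Without HSC array 1 Rrm2 was at 1.29 and Pola1 at 1.46, still called, and the list had 7 called members, as it did without MPP array 1, while 8 were called without MPP array 2. The other normalization called 20, and a fit without the CLP arrays, whose replicates spread the most, called 22. With the mean of the probe sets Pola1 was at 0.97, E2f8 at 1.13 and Uhrf1 at 1.06, all still called. Dtl, of a ubiquitin ligase that clears licensing factors in S phase, passed at 1.65 ± 0.46 but lost the call without HSC array 1 (1.16), MPP array 1 (1.98) or MPP array 2 (1.32).

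DNA repair and checkpoint genes followed, with 7 of 24 tested higher (29.2%, against 1.94% of all genes) and 0 lower and a median of 0.71. Clspn, claspin, a mediator of the replication checkpoint, had 6.34 and 6.64 in MPP, against 3.95 and 5.29 in HSC, a difference of 1.87 ± 0.35 (adjusted p = 0.00263). It was at 1.21 without HSC array 1 and at 1.14 with the mean of its probe sets, called in both. Most other calls of this group were lost when 1 array was left out, some with little change in the difference. H2ax, the histone variant phosphorylated at breaks, at 1.41 ± 0.31, lost its call without HSC array 1 (1.34) or MPP array 1 (1.37). Chek1, the checkpoint kinase, passed at 1.88 ± 0.50 and was at 1.04 without HSC array 1, not called. It also lost the call without MPP array 1 (2.08) or MPP array 2 (1.69), and it averaged 0.72 over its probe sets, not called.

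Few genes of growth and energy metabolism passed. Of 26 genes of MYC and ribosome biogenesis, 0 were higher and 1 was lower (3.85%, against 3.99% of all genes). The median was -0.19, close to that of all genes. Myc itself had 8.09 and 8.83 in MPP, against 8.29 and 8.91 in HSC, overlapping arrays with a difference of -0.14. The lower gene was Mycn, the MYC relative expressed in HSC, with 7.67 and 8.65 in MPP, against 9.89 and 11.00 in HSC, a difference of -2.28 ± 0.41 (adjusted p = 0.00195). Mycn lost its call without MPP array 1 (-1.79) and for its probe set mean (-0.75). Of 27 genes of the TCA cycle and respiratory chain, 0 passed in either direction, with a median of -0.06. The largest differences in that list, 0.93 ± 0.41 for Ndufa4 and -0.69 ± 0.38 for Ndufs1, did not pass. Of 17 genes of glycolysis and glucose transport, 2 were lower (11.8%, against 3.99% of all genes) and 0 were higher. The list median was -0.61, against -0.14 for all genes. Both MPP arrays lay below both HSC arrays in 10 of the 17, against 30.7% of all genes. The 2 that passed were the aldolase gene Aldoc (-1.50 ± 0.32) and the glucose transporter gene Slc2a3 (-1.11 ± 0.28). Both lost the call without HSC array 1, at -1.15 and -1.06, and without MPP array 1, at -1.28 and -0.77, and Slc2a3 also without HSC array 2, at -1.16. Their probe sets averaged -0.52 for Aldoc, not called, and -0.66 for Slc2a3, called. Without HSC array 2 the list had 1 called member.

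**Figure D4:**
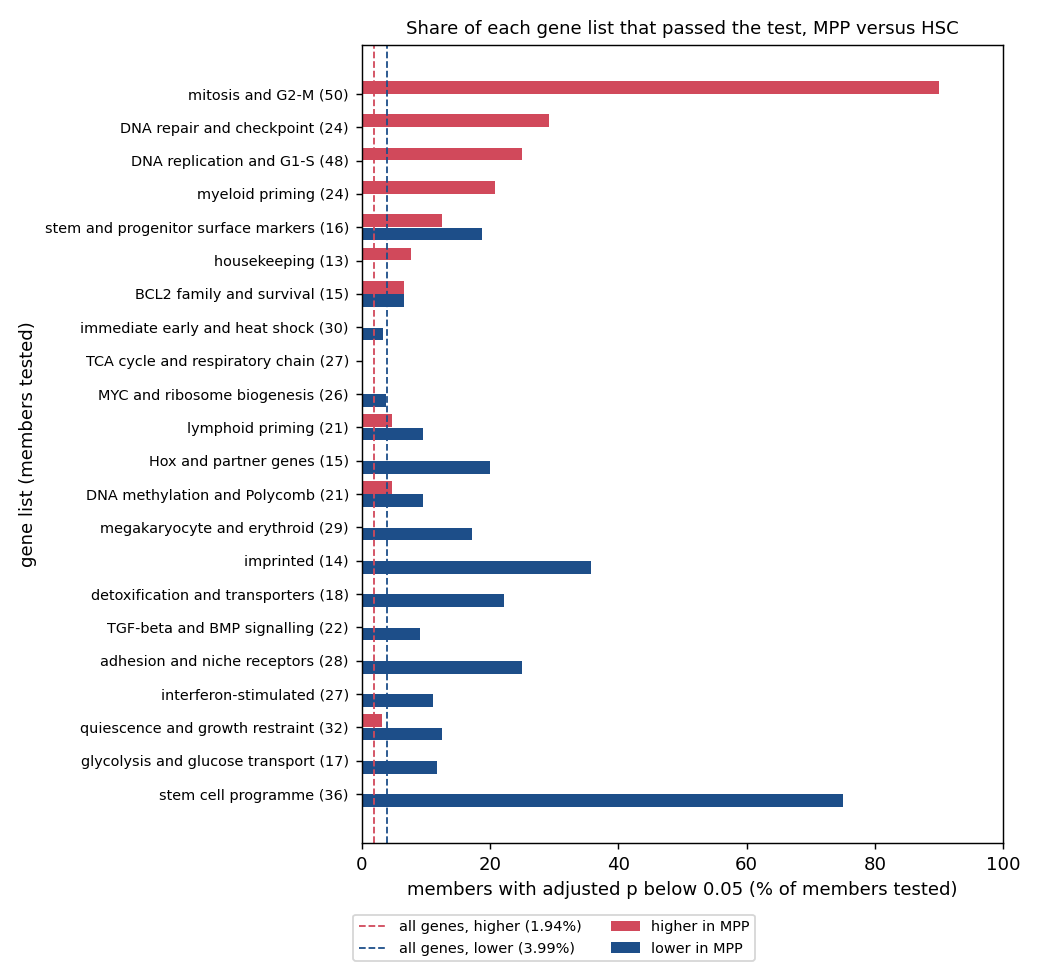
Share of the tested members of each gene list (number tested in brackets) that passed the test as higher in MPP (red) or lower in MPP (blue), in percent, with lists ordered by median difference. Dashed lines give the shares over all genes, 1.94% higher and 3.99% lower. Mitosis and G2-M, with 45 of 50 higher, and the stem cell programme, with 27 of 36 lower, stand far from those lines.

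Of 24 genes of myeloid priming tested, 5 were higher (20.8%, against 1.94% of all genes) and 0 lower, with a median of 0.47. Mpo, the peroxidase of neutrophil granules, had 11.71 and 11.05 in MPP, against 8.59 and 7.89 in HSC, a difference of 3.14 ± 0.40 (adjusted p = 0.00012). Ctsg, the granule protease cathepsin G, had 9.78 and 8.68 in MPP, against 5.88 and 5.38 in HSC, a difference of 3.60 ± 0.47 (adjusted p = 0.000134). Both granule genes were apart between the groups by more than 2 log2 units. Cst7, a cysteine protease inhibitor, rose by 2.43 ± 0.38 (adjusted p = 0.000592). Ms4a3 (1.73 ± 0.41) and Elane, neutrophil elastase (1.28 ± 0.34), passed and lost the call without HSC array 1 (1.41 and 1.10) and without MPP array 2 (1.68 and 0.72), Ms4a3 also without MPP array 1 (1.77) and Elane without HSC array 2 (1.46). Without MPP array 2, 3 members were called, as with centring on housekeeping genes. Genes of mature neutrophils did not pass. Of 8 neutrophil markers tested, 0 passed, their summed intensity was 155 and 137 in MPP, against 167 and 110 in HSC, and 4 of them, S100a9, Ltf, Mmp8 and Mmp9, were at or below the array median on all 4 arrays.

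Of 21 genes of lymphoid priming tested, 1 was higher (4.76%) and 2 were lower (9.52%), against 1.94% and 3.99% of all genes. The median was -0.22. Cd52, a lymphocyte surface glycoprotein, was at 1.64 ± 0.48 (adjusted p = 0.0494), Ltb, lymphotoxin beta, at -1.69 ± 0.38 and Gimap6, a lymphocyte GTPase, at -1.70 ± 0.43. None of the 3 kept its call without MPP array 1, with 0.72, -1.88 and -1.38. Without HSC array 2 Cd52 (1.19) and Gimap6 (-1.47) lost it too, as did Ltb without HSC array 1 (-1.29) or MPP array 2 (-1.50) and Gimap6 with its probe sets averaged (-0.46), while Cd52 was at 2.55 without MPP array 2. The list had 2 higher members without HSC array 1 or MPP array 2 and 3 lower ones without MPP array 2. The recombination gene Rag1, at 2.81 and 2.74 in MPP, against 3.10 and 2.59 in HSC, lay below the array medians, and Dntt, the template-independent polymerase, overlapped, at 8.28 and 7.70 in MPP, against 8.88 and 8.04 in HSC.

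Of 29 megakaryocyte and erythroid genes tested, 0 were higher and 5 were lower (17.2%, against 3.99% of all genes), with a median of -0.41. Car1, carbonic anhydrase 1 of erythroid cells, showed the widest difference among the named genes, with 4.13 and 5.93 in MPP, against 8.74 and 11.85 in HSC, or -5.26 ± 0.67 (adjusted p = 0.000117). The difference was -6.82 without HSC array 1 and -3.70 without HSC array 2, called in both. The other 4 were Vwf and Mmrn1, described above, Itgb3, the integrin beta 3 chain, at -2.55 ± 0.50, and Gfi1b, a repressor needed for both lineages, at -1.22 ± 0.35. Itgb3 was at -1.38 and Gfi1b at -0.92 without MPP array 1, neither called, and Gfi1b also lost the call without HSC array 2 (-0.86). The probe sets of Itgb3 averaged -1.35, still called. The core regulator Gata1 had 6.92 and 8.30 in MPP, against 6.89 and 8.40 in HSC, a difference of -0.04. Platelet factor 4, Pf4, at 0.05, and Itga2b, at 0.42, did not pass either. Without HSC array 1, 9 members were lower, and without MPP array 1, 2. The summed intensity of erythroid markers was 142 and 281 in MPP, against 306 and 1800 in HSC, so that HSC array 2 alone stood far above the others, as it did for Car1, and 1 of 6 tested passed, Ermap, an erythroid membrane protein, at -3.61 ± 0.56 and at -2.07 without HSC array 2. Without HSC array 1, 4 erythroid markers were lower, and without MPP array 2, 2. The alpha globin gene Hba-a1, Alas2 and Slc4a1 were at or below the array median on all 4 arrays. The part of these markers in the Car1 difference was not tested.

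Car1 headed the genes lower in MPP, and Unc45b, a myosin chaperone known from striated muscle, stood next, at 3.82 and 4.12 in MPP, against 8.43 and 8.11 in HSC, or -4.30 ± 0.22 (adjusted p = 1.0e-09). The rest of the 12 largest were Vwf, Sult1a1, Ermap, Cdkn1c, Mllt3, Hoxb5, Fstl1, a secreted follistatin-like protein (-2.94 ± 0.38), Trib2, a pseudokinase (-2.92 ± 0.43), Gda, guanine deaminase (-2.89 ± 0.49), and Zfp612, a zinc finger gene (-2.89 ± 0.20). The mean over probe sets gave -0.98 for Trib2 and -1.80 for Zfp612, both still called. Among the 12 largest in the other direction, 7 belonged to the mitotic list, and Mpo and Ctsg to the myeloid one. The remaining 3 were Bex6 (3.57 ± 0.45), Pclaf, a partner of the replication clamp PCNA (3.49 ± 0.48), and Nlrc3, a NOD-like receptor (3.17 ± 0.40). With the mean of the probe sets Pclaf was at 1.86 and Nlrc3 at 1.65, still called.

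Some genes for contact with the niche were lower. Of 28 adhesion and niche receptors tested, 7 were lower (25.0%, against 3.99% of all genes) and 0 higher. The median was -0.46, against -0.14 for all genes. Both MPP arrays lay below both HSC arrays in 10 of the 28, against 30.7% of all genes. Tek, Robo4 and Esam, among those that passed, also belong to the stem cell list. Jam3, a junctional adhesion molecule (-1.58 ± 0.21), and Robo4, a guidance receptor that holds HSC in the marrow (-1.54 ± 0.27), passed with every array left out in turn. Jam3 was at -0.65 with the mean of its probe sets, still called. Cd82, a tetraspanin (-1.42 ± 0.32), lost the call without HSC array 2 (-1.28) or MPP array 1 (-1.33), and its probe sets averaged -0.70, still called. The list had 4 called members without HSC array 2 and 2 without MPP array 1.

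Among 18 genes of detoxification and transport tested, 4 were lower (22.2%, against 3.99% of all genes) and 0 higher, with a median of -0.45. Aldh1a1, a retinaldehyde dehydrogenase, had 6.28 and 7.99 in MPP, against 9.25 and 10.12 in HSC, a difference of -2.55 ± 0.46 (adjusted p = 0.00186). Abcb1a, a drug efflux pump, was at -2.36 ± 0.32 (adjusted p = 0.000191), on levels of 2.39 and 3.36 in MPP, against 4.82 and 5.66 in HSC, and its probe sets averaged -1.54, still called. Abcg2, the pump behind the side population of HSC, was at -1.32 ± 0.38 (adjusted p = 0.0485), and Sult1a1 completed the group. Aldh1a1 lost the call without MPP array 1 (-1.70), and Abcg2 without MPP array 1 (-1.05), MPP array 2 (-1.60) or HSC array 2 (-0.82). The list had 2 called members without MPP array 1.

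Hox genes and their partners passed in 3 of 15 tested, all lower, with a median of -0.35. The remaining 7 of the 26 listed were too dim and 4 were not analysed here. Besides Hoxb5, Hoxa10 was at 2.63 and 3.59 in MPP, against 5.08 and 5.41 in HSC, or -2.13 ± 0.25 (adjusted p = 5.2e-05), and at -0.95 with the mean of its probe sets, still called. Pbx3, a Hox cofactor, passed narrowly at -1.64 ± 0.47 (adjusted p = 0.0483) and lost the call with any 1 of the 4 arrays left out, at -1.77 to -1.50. The list had 2 called members without HSC array 2, MPP array 1 or MPP array 2. Hoxb4 had 6.52 and 6.47 in MPP, against 6.83 and 6.87 in HSC, and Hoxa9 had 9.86 and 10.31 in MPP, against 10.91 and 11.23 in HSC. Both were lower on each MPP array, but neither passed (adjusted p = 0.521 for Hoxb4 and 0.159 for Hoxa9).

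The imprinted list, several members of which restrain growth, had a median of -0.44, and 6 of its genes were too dim. Of 14 tested, 5 were lower (35.7%, against 3.99% of all genes) and 0 higher. Next to Cdkn1c and Ndn these were Grb10, an adaptor that dampens insulin signalling, at -2.15 ± 0.46, Meg3, a long non-coding RNA, at -1.86 ± 0.27, and Sgce, a sarcoglycan, at -1.24 ± 0.31. Meg3 had 5.69 and 6.37 in MPP, against 7.89 and 7.90 in HSC (adjusted p = 0.000373), and its probe sets averaged -0.96, still called. Grb10 lost the call without MPP array 1 (-1.15), without HSC array 2 (-1.60) and for its probe set mean (-0.56). Sgce lost it without HSC array 2 (-1.0), MPP array 1 (-1.14) or MPP array 2 (-1.34) and for its probe set mean (-0.68). The list had 3 called members without HSC array 2 and 3 without MPP array 1.

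Among 21 genes of DNA methylation and Polycomb tested, 1 was higher (4.76%) and 2 were lower (9.52%), against 1.94% and 3.99% of all genes. The median was -0.40. Dnmt1, the maintenance methyltransferase that works at the replication fork, had 10.24 and 10.53 in MPP, against 8.91 and 9.05 in HSC, a difference of 1.41 ± 0.30 (adjusted p = 0.00689). Cbx7, a Polycomb chromodomain protein that supports HSC self-renewal, had 3.90 and 4.52 in MPP, against 6.45 and 6.04 in HSC, a difference of -2.03 ± 0.32 (adjusted p = 0.000706). The maintenance enzyme and the Polycomb reader thus moved in opposite directions. Ezh1, the Polycomb methyltransferase of resting cells, was at -1.42 ± 0.30 (adjusted p = 0.00742). Dnmt1 lost the call without MPP array 2 (1.27), and Ezh1 without HSC array 2 (-1.28), without MPP array 1 (-1.25) and for its probe set mean (-0.50). Cbx7 was at -0.82 with the mean of its probe sets, still called.

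In the remaining lists few members passed. Most of those calls were lost with 1 array left out, some with little change in the difference. Of 15 BCL2 family genes tested, 1 was higher and 1 lower (6.67% each, against 1.94% and 3.99% of all genes), with a median of 0.00. Bmf, a pro-death member, was higher (1.32 ± 0.31) and Mcl1, a survival factor that HSC need, was lower (-1.08 ± 0.28). Mcl1 lost the call without HSC array 1 (-0.76) or MPP array 1 (-0.89). Bmf lost it without HSC array 1 (1.29), HSC array 2 (1.35) or MPP array 2 (1.11), and for its probe set mean (0.27). Of 27 interferon-stimulated genes, 3 were lower (11.1%, against 3.99% of all genes) and 0 higher, with a median of -0.52. They were the GTPase genes Iigp1 (-2.31 ± 0.47) and Igtp (-1.11 ± 0.31) and the membrane protein gene Ifitm1 (-1.39 ± 0.38). Without HSC array 2 these were at -1.76, -0.96 and -1.17, and without MPP array 1 at -1.77, -0.64 and -1.08, and 0 of the list passed in either case. Igtp (-1.26) and Ifitm1 (-1.60) also lost the call without HSC array 1, and 5 of the list passed without MPP array 2.

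Of 22 genes of TGF-beta and BMP signalling, a pathway that holds HSC at rest, 2 were lower (9.09%, against 3.99% of all genes). They were the signal transducer Smad3 (-1.05 ± 0.27) and the receptor Bmpr1a (-0.83 ± 0.23), and the list median was -0.45. Smad3 lost the call without HSC array 1 (-1.0), HSC array 2 (-1.11) or MPP array 1 (-0.83) and for its probe set mean (-0.42). Bmpr1a lost it without HSC array 1 (-0.62), MPP array 1 (-0.87) or MPP array 2 (-0.79). The list had 4 called members without MPP array 2, 1 without HSC array 1 and 0 without MPP array 1. Immediate early and heat shock genes, which respond to handling of cells, had a median of -0.05. In that list 1 of 30 passed, the phosphatase gene Dusp2 (-1.07 ± 0.31, adjusted p = 0.0464), which lost its call with any 1 of the 4 arrays left out. Without HSC array 1, 3 members were higher. Fos had 12.96 and 13.36 in MPP, against 13.03 and 13.02 in HSC. HSC array 1 had the highest value of the 4 arrays for Atf3 (6.14), Nr4a1 (11.86) and Cdkn1a (9.11), and HSC array 2 the lowest for Atf3 (3.42) and Cdkn1a (6.14).

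In each list of markers of other cells, 0 to 3 genes passed. For B cells 0 of 11 tested passed and for T cells 0 of 11, with summed intensities of 338 and 380 for B markers in MPP, against 444 and 342 in HSC, and of 380 and 434 for T markers in MPP, against 476 and 335 in HSC. The largest differences there, Vpreb1 (-0.73) and Pax5 (-0.56) for B cells and Bcl11b (-1.36) and Cd3e (0.74) for T cells, did not pass. Cd79a, Ms4a1 and Ebf1 and the CD3 genes Cd3d and Cd3g were at or below the array median on all 4 arrays. Of 9 NK markers 1 passed (11.1%, against 1.94% of all genes), Nkg7, a granule membrane protein. It had 9.75 and 9.96 in MPP, against 7.51 and 7.04 in HSC, or 2.58 ± 0.33, and a mean of 10.49 in GMP. The summed intensity of the list was 987 and 1090 in MPP, against 313 and 246 in HSC. Nkg7 made up most of that sum in MPP, and the other 8 markers had differences of -0.79 to 0.56 without passing. The receptor gene Klrk1 was at or below the array median on all 4 arrays.

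Among 14 markers of monocytes, macrophages and dendritic cells, 2 were lower, both of antigen presentation. The invariant chain gene Cd74 had 4.18 and 4.90 in MPP, against 6.87 and 7.21 in HSC, or -2.50 ± 0.33, and H2-Aa had 8.24 and 7.95 in MPP, against 10.37 and 10.14 in HSC, or -2.16 ± 0.35. Unused probe sets of H2-Aa were at -2.08, -1.99 and -0.64, the last not passing (adjusted p = 0.251 over all probe sets). The summed intensity of the list was 950 and 709 in MPP, against 2080 and 1740 in HSC. H2-Aa and Cd74 made up most of that sum in HSC. C1qa, C1qb, C1qc, Mrc1 and Cd14 were at or below the array median on all 4 arrays. Of 6 mast cell and basophil markers tested, Cpa3, a mast cell protease, was higher at 8.20 and 8.92 in MPP, against 6.71 and 7.16 in HSC, or 1.62 ± 0.30, with summed intensities of 501 and 663 in MPP, against 239 and 240 in HSC. Without MPP array 1, 2 members were higher. The high-affinity IgE receptor gene Fcer1a was at or below the array median on all 4 arrays. For stroma and endothelium, 6 of 13 genes were too dim and 7 were tested. Of the 7, 1 was higher (14.3%, against 1.94% of all genes) and 2 were lower (28.6%, against 3.99%). Pdgfrb was higher (1.73 ± 0.43), and the endothelial genes Kdr (-1.65 ± 0.28) and Emcn (-1.39 ± 0.27) were lower. Pdgfrb lost its call with any 1 of the 4 arrays left out (1.61 to 1.86). Emcn lost it without HSC array 2 (-1.03) or MPP array 1 (-1.35). Several stem cell genes above are shared with endothelium. The endothelial genes Cdh5 and Pecam1 were at or below the array median on all 4 arrays, and the summed intensity of the list was 337 and 368 in MPP, against 331 and 377 in HSC.

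Housekeeping genes had 1 of 13 higher, Actb (0.85 ± 0.21), which lost its call with any 1 of the 4 arrays left out (0.79 to 0.90) and with its probe sets averaged (0.75), and of 4 sex-linked genes tested 0 passed, with Xist at -0.79 and Uty at -0.75. The actin 3' minus 5' signal, a measure of RNA integrity after amplification, was 2.18 and 1.88 in MPP, against 2.65 and 2.16 in HSC, on the log2 scale. The same signal for Gapdh ran the other way, at 2.76 and 2.61 in MPP, against 2.52 and 2.17 in HSC.

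The other populations place the step along the path away from HSC. The median stem cell gene lay at -1.86 in MPP, at -3.11 in LMPP, at -4.10 in CLP and at -4.11 in GMP, all relative to HSC. The median mitotic gene lay at 2.33 in MPP, 2.68 in LMPP, 0.74 in CLP and 2.38 in GMP, at 3.67 in pro-B cells and at -0.52 in CD4 T cells. Each population's own value against the same HSC arrays is given, and these medians have no test. The actin 3' minus 5' signal was 5.20, 3.26 and 5.27 in CLP and 6.46, 6.68 and 6.44 in GMP, against 2.65 and 2.16 in HSC. The median housekeeping gene lay at -1.30 in CLP and at 0.18 in GMP, relative to HSC. The part of RNA integrity in the CLP and GMP medians was not tested. LMPP were also tested against the same MPP arrays, where 127 of all genes were higher (0.942%) and 104 lower (0.772%). There 12 of the 36 stem cell genes were lower and 0 higher, with a median of -0.87, and 0 of 50 mitotic genes passed, with a median of 0.38. Of the 29 megakaryocyte and erythroid genes 11 were lower in LMPP than in MPP, with a median of -1.09, and 6 of the 21 lymphoid genes were higher, with a median of 0.97. For single genes the LMPP mean was 2.59 for Vwf and 3.95 for Cdkn1c, below the MPP arrays, while it was 10.99 for Flt3, above them.

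**Figure D5:**
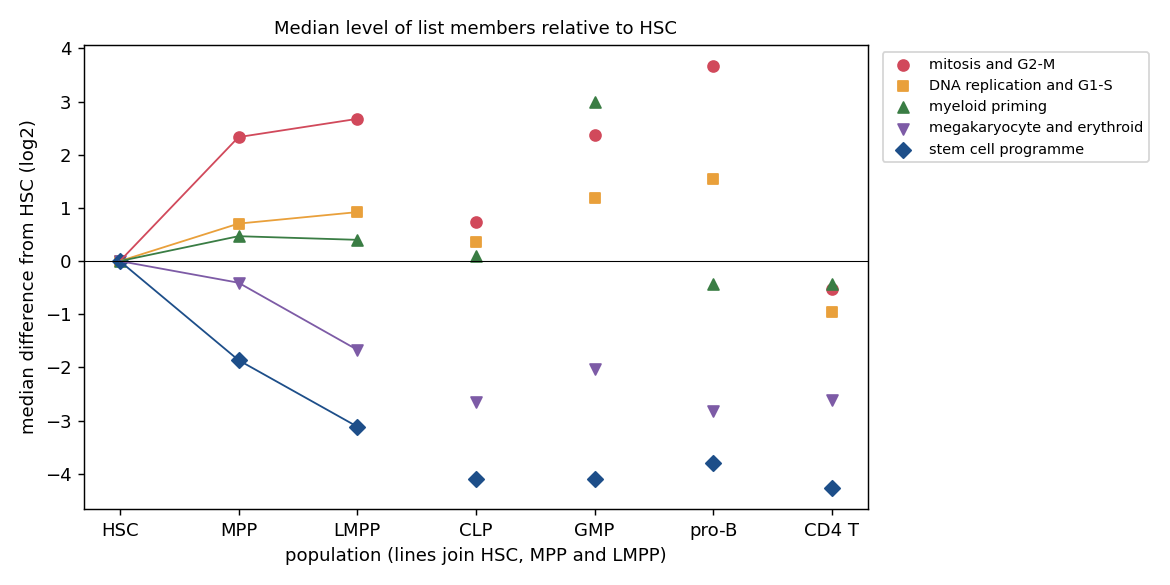
Median difference from HSC (vertical axis, log2) of the tested members of 5 gene lists in MPP, LMPP, CLP, GMP, pro-B and CD4 T cells, 1 symbol per list, with HSC at 0. Lines join HSC, MPP and LMPP. The stem cell list falls to -1.86 in MPP and -3.11 in LMPP, and the mitotic list stands at 2.33 and 2.68.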

How the data were processed

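Expression was measured on Affymetrix mouse arrays. The authors deposited 1 intensity per probe set and array, made with RMA per the submitters' processing notes, with no version given there. The values of 45101 probe sets were linear intensities, so their log2 was taken where the design had foreseen log2 values. Array medians lay between 3.78 and 4.04, and the number of arrays limits the precision. RMA gives no detection call, so differences of genes near the median can be understated.

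Gene symbols came from the platform table (34958 probe sets with 1 symbol, 932 with several, 9211 with none here), and 34754 probe sets were matched by Entrez ID to RefSeq of GRCm38.p6, also the source of the promoters. Each of 18194 genes was taken from its brightest single-symbol probe set. Genes exceeding the median of their array fewer than 2 times were left out as dim (4715).

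One limma 3.58.1 model in R 4.3.3 (lmFit, eBayes with an intensity trend) was fitted to all 20 arrays in 9 groups, leaving 11 residual degrees of freedom, with Benjamini-Hochberg adjustment over the 13479 genes. The 31 gene lists and the rule for named genes were chosen with earlier results of these data known. The rule named the 12 largest called genes per direction, leaving out unnamed gene models and receptor segments, at most 6 called genes from every list (where none passed, its 2 largest differences), and all surface markers, CDK inhibitors and D-type cyclins. Genes named beyond it (among them Fos, Atf3, Nr4a1, Gata1, Pf4, Myc, Hes1, Hoxb4, Hoxa9, Dntt, Rag1 and uncalled members of the stem and mitotic lists) were chosen after their values were seen. Alternatives covered the filter, probe set choice, intensity trend, normalization, arrays in the fit, a replicate block and each array left out.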

Additional observations from a re-analysis of the deposited data

How the results depend on the processing

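None of the 89 named genes called and none of the list results reversed, but 2 of all genes called turned sign with the mean of the probe sets of a gene. The 261 higher and 538 lower genes became 40 and 61 with the HSC and MPP arrays alone, 144 and 249 with HSC, MPP and LMPP, and 486 and 1147 without the CLP arrays. Leaving out 1 array gave 95 to 227 higher (95 without MPP array 1, 163 without HSC array 1) and 125 to 561 lower (125 without MPP array 1, 314 without HSC array 2). Members of the stem cell programme lower in MPP, 27, numbered 7 with 4 arrays alone and 15 to 28 with 1 array left out, and mitotic members higher, 45, numbered 9 with 4 arrays, 27 with HSC, MPP and LMPP and 24 to 46 with 1 array left out. G1-S members higher, 12, numbered 20 with repeated quantile normalization, 1 with 4 arrays, 22 without the CLP arrays and 7 to 13 with 1 array left out, and 1 was lower without the CLP arrays against 0. Quiescence members higher numbered 1 to 2 and lower 3 to 5 with 1 array left out, against 1 and 4. Of 89 named genes called, 64 lost the call under any alternative, 42 without 1 array and 22 under an alternative other than fewer arrays (10 with centring on housekeeping genes, 12 with the mean of the probe sets, 7 with quantile normalization). The groups share replicate numbers, but the labels give them no meaning. The difference between arrays 1 and 2 in HSC correlated with that in MPP at 0.37 over the genes tested. With the replicate number as a block, 292 genes were higher and 625 lower, 46 mitotic, 27 stem cell and 16 G1-S members were called, and Gfi1b lost its call. The cause of these shifts was not tested. The 4-array fit differs from the full fit both in its degrees of freedom and in its estimate of the spread, and these were not separated.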
